A study of Mus musculus with 20 samples.

Results

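The cytosolic ribosome makes every protein of the cell, and its large and small subunits are each built from ribosomal RNA and a fixed set of ribosomal proteins. Rpl and Rplp genes encode the proteins of the large subunit, and Rps genes and Rpsa those of the small subunit. Their mRNAs are among the most abundant of growing cells and typically begin with a C followed by a run of pyrimidines, the 5′ terminal oligopyrimidine (TOP) tract, through which growth signals control their translation. Free Rpl5 and Rpl11 also bind and inhibit Mdm2, the ubiquitin ligase of p53, when ribosome assembly is disturbed.

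The cytosolic ribosomal protein genes were the protein-coding genes of the count table with symbols Rpl or Rps followed by a digit, with Rplp0, Rplp1, Rplp2 and Rpsa and without the Rps6k kinases. They were 85 of 51826 genes. Of these, 77 are the standard set (called core members here, 46 of the large and 31 of the small subunit), and 8 are tissue-restricted or secondary copies (paralogs): Rpl3l, Rpl7l1, Rpl10l, Rpl22l1, Rpl36al, Rpl39l, Rps27l and Rps27rt. Fau and Rack1, which also give ribosome components, lie outside this choice. All 77 core members and 5 of the paralogs had enough counts to be tested. Rpl10l, Rpl39l and Rps27rt did not.

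RNA of mouse sarcoma tissue was sequenced in 14 lung metastases and 6 primary tumours. Each metastasis is matched by its label with 1 primary tumour, which gives 6 sets, with 4 metastases in each of sets 1 and 2, 2 in each of sets 3 and 6 and 1 in each of sets 4 and 5. Metastases are written as set and number, so 3-2 belongs to set 3, and the single metastasis of set 5, which has no number, is written 5-x. The label of genotype gives only a mixed background for both groups, and no driver allele, agent, sex, age or tumour site is named in the labels used here. Whether samples of a group are from different animals is not labelled, and the p-values cover only the spread among the samples, which may be technical.

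Libraries held 20603620 to 36824370 counts. Levels are CPM, counts relative to the library total after TMM scaling, and log2 fold changes are lung metastasis over primary tumour. Tissue markers differed between libraries and groups. The summed level of 20 skeletal muscle genes lay between 52.9 and 12420 CPM in metastases, against 7.07 to 31790 CPM in primary tumours. These ranges overlapped, with 77.8 and 7.07 CPM in primary tumours 4 and 6. The summed level of 18 lung epithelium genes lay between 490 and 15690 CPM in metastases, against 5.25 to 486 CPM in primary tumours. In tissue, fewer cells of a type and less RNA per cell cannot be told apart.

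Several libraries stand apart or go against their set labels. In metastases 3-2 and 4-1 and in primary tumour 4, GC-rich transcripts were low, members and other genes alike. Within set 4, metastasis 4-1 had 1.51 CPM of Xist, the RNA of the inactive X chromosome, and 189 CPM of Ddx3y, a gene of the Y chromosome, whereas primary tumour 4 had 6081 CPM of Xist and 0.428 CPM of Ddx3y. Xist was also at 296.5 CPM in metastasis 3-2 and 80.4 CPM in metastasis 2-1, against 0.0544 and 0.121 CPM in primary tumours 3 and 2. Ddx3y was at 42.3 and 62.1 CPM in these metastases. Set 6 differed in Rps3a1 and its pseudogene Rps3a3. Metastases 2-1 and 2-2 differed from metastases 2-3 and 2-4 in Rpl34 and in the pseudogene Rplp0-ps1. In set 5, the primary tumour and metastasis 5-x differed in Rpl34. The values of these members and pseudogenes are given below. Whether these libraries carry the right labels was not tested. The main results are also given without set 4 and metastasis 3-2, the libraries low in GC-rich transcripts, a choice made after the data were seen. Sets 2, 5 and 6 stay in that fit.

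The start of the mRNA is shown for 10 members, because the TOP tract is the sequence feature by which these genes are known. The 15 bases before and the 15 from the annotated RefSeq start are given 5′ to 3′ (GRCm38.p6; 65 of 85 members had an entry), with capitals for the pyrimidine run where the start is a C followed by at least 4 more pyrimidines.
Rpl15 (chr14:18270972-18271001, minus strand): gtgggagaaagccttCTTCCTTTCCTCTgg
Rps15a (chr7:118116133-118116162, minus strand): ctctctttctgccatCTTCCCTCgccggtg
Rps6 (chr4:86857353-86857382, minus strand): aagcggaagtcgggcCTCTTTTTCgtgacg
Rps27 (chr3:90213634-90213663, minus strand): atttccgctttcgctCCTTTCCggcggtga
Rpl38 (chr11:114668565-114668594, plus strand): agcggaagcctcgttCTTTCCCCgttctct
Rps10 (chr17:27635230-27635259, minus strand): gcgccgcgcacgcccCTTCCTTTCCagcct
Rplp2 (chr7:141447636-141447665, plus strand): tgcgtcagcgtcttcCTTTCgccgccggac
Rpl13a (chr7:45128731-45128760, minus strand): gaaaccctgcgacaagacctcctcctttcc
Rpl5 (chr5:107900513-107900542, plus strand): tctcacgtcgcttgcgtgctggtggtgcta
Rpl3l (chr17:24727811-24727840, plus strand): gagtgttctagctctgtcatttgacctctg

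The run was 13 bases long in Rpl15 and 10 in Rps10, and the annotated starts of Rpl13a, Rpl5 and Rpl3l held none. A start of this kind was found in 13 of 57 core members with a RefSeq promoter (22.8%), in 1 of 8 paralogs (12.5%), in 0 of 69 mitochondrial ribosomal protein genes and in 813 of 27025 genes in all (3.0%). In Rpl13a, pyrimidines follow within the 15 bases after the annotated start. Whether the annotated starts are those used in these tumours was not tested. The 13 core members with such a start had a median log2 fold change of -0.24, and the 44 with another start also had -0.24. Each group held 1 called gene, Rpl15 among the first and Rpl13a among the second.

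As a class, the members took a small and variable part of the counts. They held 0.477% to 1.33% of all counts in metastases (mean 1.04% ± 0.294, SD, n = 14), against 0.542% to 1.45% in primary tumours (mean 0.997% ± 0.294, SD, n = 6). The difference of the matched groups averaged -0.0319 percentage points (SD 0.369, n = 6 sets) and was positive in 3 sets, so it was smaller than the spread between sets. The highest share was that of primary tumour 6, and the lowest were those of metastasis 4-1, metastasis 3-2 and primary tumour 4.

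**Figure D1:**
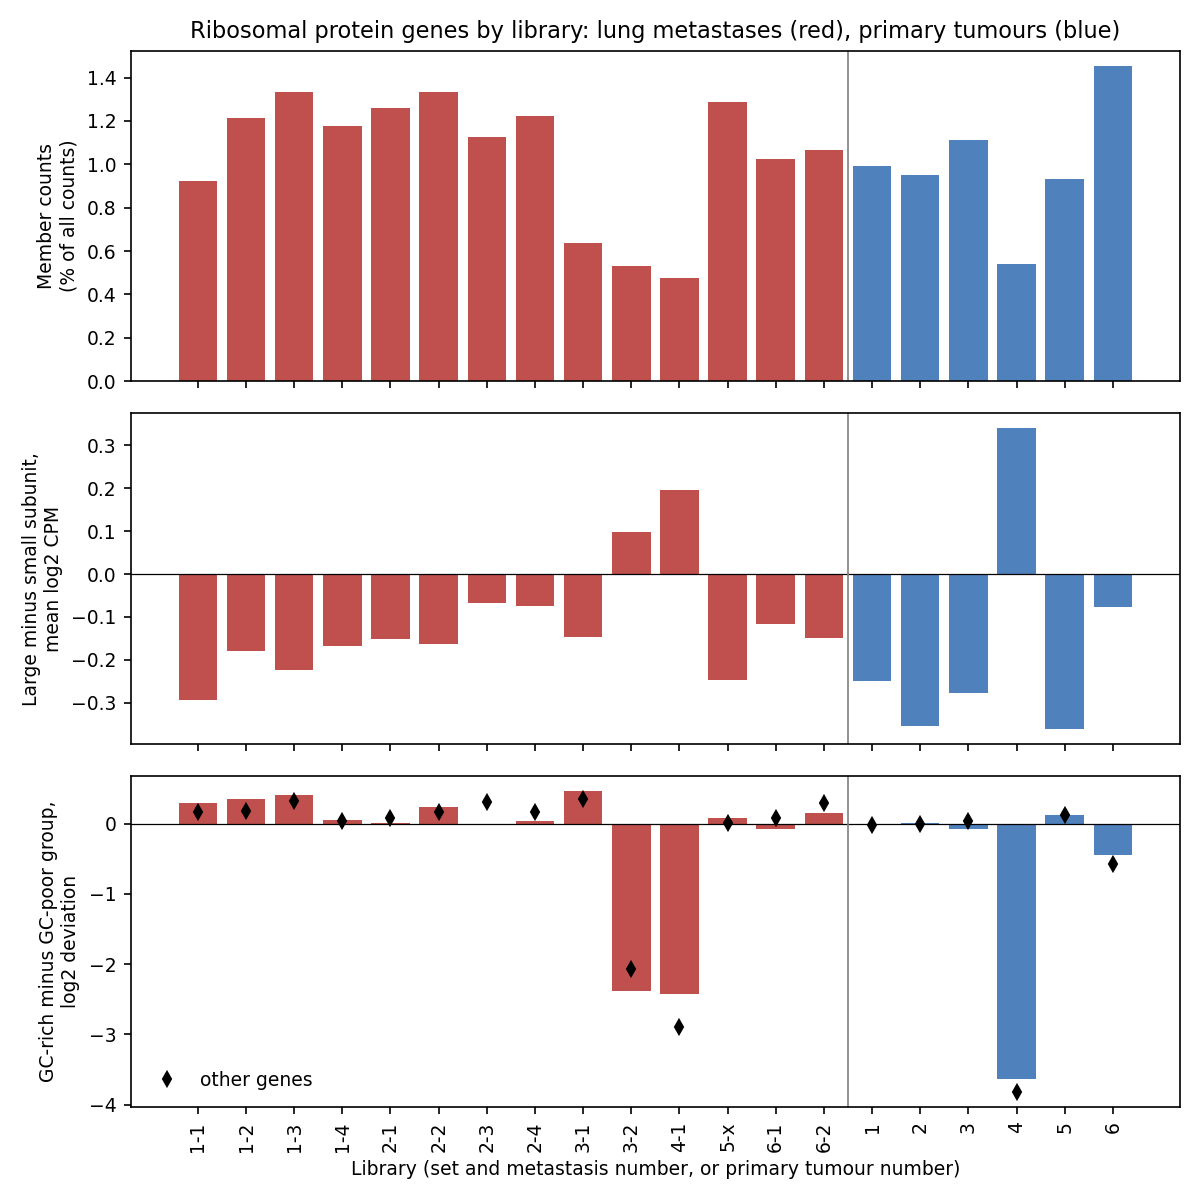
Share of member counts (top, % of all counts), mean log2 CPM of large minus small subunit core members (middle) and the difference between the GC-rich and the GC-poor group of core members in their median log2 deviation from each gene's median over 20 libraries (bottom; diamonds, other genes), with lung metastases left and primary tumours right. Metastases 3-2 and 4-1 and primary tumour 4 have small shares, the only values of large minus small above 0, and differences between GC groups of -2.39, -2.42 and -3.64.

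In mean log2 CPM, the balance of large and small subunit genes differed between the groups by less than the spread between sets. The mean log2 CPM of large minus that of small subunit core members averaged -0.12 ± 0.13 in metastases (SD, n = 14), against -0.16 ± 0.27 in primary tumours (SD, n = 6). The difference within sets averaged 0.07 (SD 0.16, n = 6 sets) and was positive in 4 sets. In 17 libraries the value lay between -0.36 and -0.07. It was 0.10 in metastasis 3-2, 0.20 in metastasis 4-1 and 0.34 in primary tumour 4. Mean GC content was 51.6% in large and 51.4% in small subunit transcripts. In the ratio of summed counts, large over small on the log2 scale, metastases averaged 0.55 ± 0.14 (SD, n = 14) and primary tumours 0.37 ± 0.22 (SD, n = 6). The ratio was higher in metastases in 5 of 6 sets. Its difference within sets averaged 0.193 (SD 0.198, n = 6 sets), about as large as the spread between sets.

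Few single members differed between metastases and primary tumours. Of 82 members tested, 0 rose and 3 fell: Rpl3l, Rpl13a and Rpl15 (edgeR quasi-likelihood test with matched set as a block, Benjamini-Hochberg adjusted p under 0.05). Over all 18452 genes tested, 13.8% were called, 7.34% as rises and 6.44% as falls, so that the members' share of falls lay below that of all genes. At an unadjusted p under 0.05, 2 members were higher and 12 lower, where 14.7% of all genes were higher and 14.1% lower. DESeq2 called 1 rise and 5 falls among members, against 12.5% of all genes as rises and 10.1% as falls. The median log2 fold change of the members was -0.21, against 0.00 over all genes tested. It was -0.15 over the 46 large and -0.23 over the 31 small subunit core members.

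**Figure D2:**
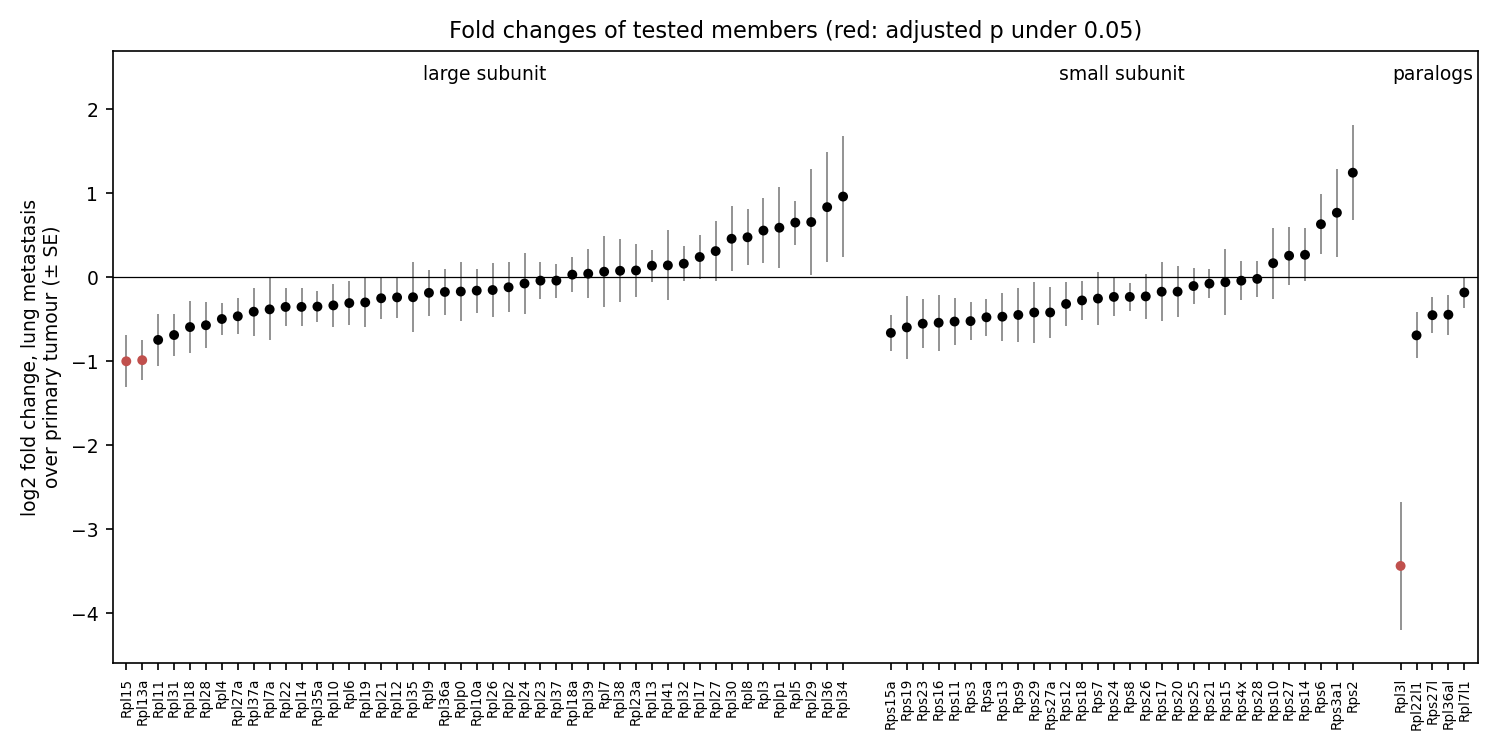
Log2 fold change of lung metastasis over primary tumour (vertical axis) with its standard error for 81 of the 82 tested members, ordered by value within the large subunit, the small subunit and the paralogs. The 3 called members, Rpl15, Rpl13a and Rpl3l, are red, and values of core members run from -1.0 to 1.25.

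Rpl3l is the striated muscle copy of Rpl3, a protein at the peptidyl transferase centre. Its level was 0.0301 CPM at the lowest, 0.125 CPM at the median and 0.944 CPM at the highest of 14 metastases. In primary tumours 1 to 6 it was 2.97, 6.80, 6.20, 0, 3.36 and 0 CPM. All metastases lay below primary tumours 1, 2, 3 and 5, whereas primary tumours 4 and 6 had no count. The log2 fold change was -3.44 ± 0.76 (SE; edgeR, adjusted p = 0.00861). The summed skeletal muscle level was 12450, 21180, 15140 and 31790 CPM in primary tumours 1, 2, 3 and 5, and 77.8 and 7.07 CPM in primary tumours 4 and 6. The levels of the list and of Rpl3l did not run in parallel in every library: metastases 2-3 and 3-1 had 12420 and 7692 CPM of the muscle list, with 0.216 and 0.944 CPM of Rpl3l. With the mean log2 CPM of the muscle list as a covariate, Rpl3l had a log2 fold change of -1.07 and edgeR's adjusted p was 0.487. It made up 0.541% ± 0.877 of the counts of Rpl3 and Rpl3l together in metastases (SD, n = 14), against 12.1% ± 13.8 in primary tumours (SD, n = 6).

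Rpl13a is a large subunit protein that in human monocytes also leaves the ribosome to silence inflammatory mRNAs. It ran from 19.1 CPM through a median of 33.7 CPM to 50.9 CPM in metastases, against 40.0, 53.1 and 136 CPM in primary tumours. The groups overlapped, and the highest value was that of primary tumour 6. The log2 fold change was -0.99 ± 0.24 (SE; edgeR, adjusted p = 0.0141). Without sets 4 and 6 and metastasis 3-2 it was -0.55, with an adjusted p of 0.185 in edgeR. Rpl15, a large subunit protein needed for maturation of its ribosomal RNA, ran from 15.1 CPM through 29.7 CPM to 81.03 CPM in metastases, against 34.6, 43.2 and 377 CPM in primary tumours. The highest values were those of primary tumour 4, primary tumour 6 and metastasis 4-1. The log2 fold change was -1.0 ± 0.31 (SE; edgeR, adjusted p = 0.0409), and without set 4 and metastasis 3-2 it was -0.82, with an adjusted p of 0.0864 in edgeR. With set 6 left out as well it was -0.31, with an adjusted p of 0.357 in edgeR. For all 3 genes, edgeR's adjusted p was above the threshold without set 1 (0.0552 to 0.0923) and where the metastases of each set were summed (0.197 to 0.280). Without set 1 the log2 fold changes were -3.19 for Rpl3l, -1.07 for Rpl13a and -1.19 for Rpl15. With the metastases summed they were -2.94, -0.89 and -0.945. Over all genes, 2.36% fell without set 1 and 0.357% with the metastases summed, against 6.44% in all libraries. For Rpl13a edgeR's adjusted p was also above the threshold without set 6 (0.0804), for Rpl3l without set 2 (0.0908), and for Rpl15 without set 2, 4 or 6 (0.0639 to 0.215). Without set 2, 4 or 6, the falls over all genes were 2.22%, 5.54% and 3.22%. Rpl15 also lost its call without any single metastasis of sets 1, 2, 3 and 6 other than 2-3 and 3-2 (edgeR, adjusted p 0.0504 to 0.0953), with log2 fold changes of -1.01 to -0.85. With the mean log2 CPM of the lung epithelium list as a covariate, the log2 fold change was -1.11 for Rpl13a (edgeR, adjusted p = 0.111) and -0.79 for Rpl15 (edgeR, adjusted p = 0.356), where 3.3% of all genes fell.

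Without set 4 and metastasis 3-2, other members passed the threshold. Rpl5, Rpl8, Rpl41 and Rps14 rose, and Rpl3l, Rpl13a and Rpl31 fell, where 9.28% of all genes tested rose and 7.63% fell. The median log2 fold change of the members was then -0.06. Rpl8, a protein of the large subunit's catalytic core, had a log2 fold change of 0.71 ± 0.19 (SE; edgeR, adjusted p = 0.0231) in this fit and 0.48 in the fit of all libraries. Rps14, a small subunit protein linked to the anaemia of the human 5q- syndrome, had 0.52 ± 0.14 (SE; edgeR, adjusted p = 0.0258) in this fit. Rpl31, which lines the exit of the peptide tunnel, had -0.73 ± 0.16 (SE; edgeR, adjusted p = 0.0100), against -0.69 with an adjusted p of 0.0796 in all libraries. With a trend on GC content removed from each library as well, Rpl5 rose, and Rpl3l, Rpl13a and Rpl31 fell.

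Rpl5 and Rpl11, the pair that carries 5S ribosomal RNA and binds Mdm2, had fold changes of opposite sign, neither past the threshold in all libraries. Rpl5 ran from 29.5 CPM through 44.1 CPM to 109 CPM in metastases, against 16.5, 26.8 and 133 CPM in primary tumours. It was higher in the metastases of 4 of 6 sets, and its log2 fold change was 0.65 ± 0.26 (SE; edgeR, adjusted p = 0.112). Without set 4 and metastasis 3-2 it passed the threshold narrowly, at 0.73 ± 0.24 (SE; edgeR, adjusted p = 0.04995). Rpl11 ran from 2.23 CPM through 5.55 CPM to 15.1 CPM in metastases, against 3.90, 11.7 and 17.03 CPM in primary tumours, with a log2 fold change of -0.75 ± 0.31 (SE; edgeR, adjusted p = 0.121). Of 16 genes of the p53 pathway, 0 rose and 1 fell (edgeR's unadjusted p was under 0.05 for 2 that were higher and 5 that were lower), with a median log2 fold change of -0.29. This share of falls, 6.25%, is near the 6.44% of all genes. The gene that fell was Ccng1, a cyclin induced by p53, with -0.88 ± 0.17 (SE; edgeR, adjusted p = 0.00507).

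The stalk proteins, which recruit translation factors to the large subunit, were not called. Rplp1 ran from 67.2 to 643 CPM in metastases, against 1.98 to 319 CPM in primary tumours, and Rplp2 from 7.78 to 151 CPM in metastases, against 14.98 to 77.8 CPM in primary tumours. Rplp0, their anchor on the ribosome, ran from 70.1 to 1058 CPM in metastases, against 92.0 to 657 CPM in primary tumours. Among small subunit proteins, Rps6, the substrate of the Rps6k kinases, had a log2 fold change of 0.63 ± 0.35 (SE; edgeR, adjusted p = 0.255) at only 0.855 to 4.37 CPM over all libraries. Rps19, the gene most often mutated in human Diamond-Blackfan anaemia, had -0.60 ± 0.38 (SE; edgeR, adjusted p = 0.319). Rpsa, which is also known as a laminin receptor, had -0.48 ± 0.22 (SE; edgeR, adjusted p = 0.165).

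The other paralogs did not pass the threshold. The shares within pairs given here compare libraries, not the levels of the 2 genes, since the genes of a pair can share different parts of their sequence with other genes: 48.3% of 50-base words in Rps27l and 100% in Rps27, 0% in Rpl39l and 86.5% in Rpl39, and 0% in Rpl3l and 95.7% in Rpl3. Rpl22l1, which can replace Rpl22 and is controlled by it, ran from 21.1 CPM through 37.6 CPM to 85.5 CPM in metastases, against 26.3, 51.7 and 242 CPM in primary tumours. It made up 18.2% ± 9.47 of the counts of the pair in metastases (SD, n = 14), against 24.3% ± 14.7 in primary tumours (SD, n = 6). The largest shares were 45.0% in metastasis 4-1 and 53.2% in primary tumour 4, where Rpl22l1 (GC 40.6%) had 85.5 and 242 CPM. Rpl22 (GC 49.2%) had 104 and 212 CPM there, and the cause was not tested. Rps27l, a p53 target in human cells, made up 94.4% ± 2.69 of its pair with Rps27 in metastases (SD, n = 14), against 96.9% ± 1.86 in primary tumours (SD, n = 6). Rps27 itself had only 1.23 to 5.32 CPM in all libraries. Rpl36al made up 78.0% ± 6.54 in metastases (SD, n = 14), against 82.5% ± 3.42 in primary tumours (SD, n = 6) of its pair with Rpl36a. Rpl39l, the copy of Rpl39 known from male germ cells, had 33.5 CPM in primary tumour 6. In the other 19 libraries it had 0 to 0.786 CPM, so that it made up 6.86% of the pair in primary tumour 6 and at most 0.331% elsewhere.

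Other lists of the translation machinery held 0% to 12.5% of called genes, against 13.8% of all genes tested. Of 77 mitochondrial ribosomal protein genes tested, 0 rose and 3 fell (Mrpl24, Mrpl30 and Mrpl42; edgeR's unadjusted p was under 0.05 for 5 that were higher and 9 that were lower), with a median log2 fold change of -0.07. Of 19 elongation factors and other genes of TOP mRNAs, Eif3h rose (0.82 ± 0.21, SE; edgeR, adjusted p = 0.0170) and Eif4a2 fell (-0.89 ± 0.24, SE; edgeR, adjusted p = 0.0233). Of 26 initiation factors, Eif1, which guards start codon choice, rose (0.48 ± 0.14, SE; edgeR, adjusted p = 0.0323) and Eif3c fell. Of 44 genes of ribosomal RNA synthesis and processing 0 were called in either direction by edgeR, and its unadjusted p was under 0.05 in 1 gene, which was higher. Of 8 chaperones of ribosomal proteins 1 fell, Bccip (-0.67 ± 0.14, SE; edgeR, adjusted p = 0.00672).

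Among the 12 metastases of sets 1, 2, 3 and 6, edgeR's F test called 0 of 82 members as different between sets, where 0.321% of 19919 genes were called. At an unadjusted p under 0.05 there were 28 members (34.1%), against 29.5% of all genes, and DESeq2's likelihood ratio test called 23 members (28.0%), against 25.1% of all genes. The members of smallest p were Rps3, Rps18, Rps21, Rpl26 and Rpl37a, with edgeR adjusted p of 0.0526 to 0.0580. The edgeR count turned on single libraries, and the share over all genes moved with it. Without metastasis 3-1 it was 37 of 82 (45.1%), against 26.6% of all genes. In that fit set 3 is metastasis 3-2 alone, 1 of the libraries low in GC-rich transcripts, and the lone sample is assumed to vary like those of the other sets. Without metastasis 2-4 it was 9, against 6.02% of all genes, and without metastases 1-1 or 2-3 it was 4, against 1.38% and 1.17%. Without set 2 it was 12 (14.6%), against 12.2% of all genes.

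In 3 libraries the levels of members went with the GC content of their transcripts. Rps15, a small subunit protein of the decoding region (GC 57.8%), had 9.26 CPM in metastasis 3-2 and 2.11 CPM in metastasis 4-1, and 209 to 308 CPM in the other 12 metastases. In primary tumour 4 it had 1.39 CPM, and in the other primary tumours 218 to 250.8 CPM. Rpl8 (GC 58.0%) had 101 and 18.0 CPM in metastases 3-2 and 4-1 and 679 to 1917 CPM in the others, against 11.4 CPM in primary tumour 4 and 691 to 1056 CPM in the other primary tumours. Rps10 (GC 60.3%) stayed at 2.75, 0.920 and 1.61 CPM in metastases 3-2 and 4-1 and in primary tumour 4. The reverse was seen in Rpl39 (GC 48.7%), a small protein of the exit tunnel, with 658 and 772 CPM in these metastases and 1239 CPM in primary tumour 4. The other libraries had 113 to 455 CPM of Rpl39. GC content did not order every member: Rps26 (GC 48.6%) had only 24.1 and 10.3 CPM in metastases 3-2 and 4-1 and 13.1 CPM in primary tumour 4, and Rpl37 (GC 48.3%) had 45.4, 10.9 and 14.0 CPM there. Rpl4 (GC 48.2%), Rps3 (GC 48.4%), Rpl7 (GC 45.8%) and Rpl22 (GC 49.2%) were at their lowest of the 20 libraries in metastasis 4-1. Their levels there were 529, 269, 90.2 and 104 CPM. Of the 26 core members at 49.3% GC or less, 13 had their highest value in one of these 3 libraries.

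The first 60 coding bases of 4 members with GC-rich transcripts (Rps15, Rps10, Rpl8 and Rplp1) and of 4 with GC-poor transcripts (Rpl39, Rps20, Rpl5 and Rps24) are shown with G and C in capitals (5′ to 3′, GENCODE M21 transcripts, GRCm38). They were chosen after the values were seen.
Rps15 (chromosome 10): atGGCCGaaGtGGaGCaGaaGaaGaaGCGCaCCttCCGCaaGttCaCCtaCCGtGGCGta
Rps10 (chromosome 17): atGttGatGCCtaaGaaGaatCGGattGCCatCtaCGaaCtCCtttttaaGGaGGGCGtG
Rpl8 (chromosome 15): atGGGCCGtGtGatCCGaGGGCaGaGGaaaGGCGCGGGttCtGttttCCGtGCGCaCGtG
Rplp1 (chromosome 9): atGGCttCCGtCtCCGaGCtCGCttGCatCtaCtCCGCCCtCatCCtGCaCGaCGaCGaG
Rpl39 (chromosome X): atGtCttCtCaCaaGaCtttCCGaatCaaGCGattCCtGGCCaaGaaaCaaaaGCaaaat
Rps20 (chromosome 4): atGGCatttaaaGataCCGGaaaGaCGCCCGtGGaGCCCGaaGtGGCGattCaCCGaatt
Rpl5 (chromosome 5): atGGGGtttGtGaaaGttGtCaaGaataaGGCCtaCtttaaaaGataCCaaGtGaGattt
Rps24 (chromosome 14): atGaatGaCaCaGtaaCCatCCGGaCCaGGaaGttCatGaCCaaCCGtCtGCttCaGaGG

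The GC content of the stretches was 56.7% in Rps15, 45.0% in Rps10, 63.3% in Rpl8 and 61.7% in Rplp1, against 40.0% in Rpl39, 51.7% in Rps20, 35.0% in Rpl5 and 50% in Rps24. The stretches of the GC-rich and GC-poor transcripts overlapped in GC content, with that of Rps10 below those of Rps20 and Rps24, so the grouping holds for whole transcripts and not for these first bases. Over the class, the GC-rich group of core members (26 genes at 53.1% or more) was compared with the GC-poor group (26 genes at 49.3% or less) by the median log2 deviation of each gene from its median over the 20 libraries. The difference was -2.39 in metastasis 3-2, -2.42 in metastasis 4-1 and -3.64 in primary tumour 4. It was between -0.45 and 0.46 in the other 17 libraries. Over 14707 other genes with a GC value, the same difference was -2.07, -2.90 and -3.81 in those 3 libraries, so genes outside the class showed the pattern too. Of the 26 GC-rich core members, 15 had their 3 lowest values in exactly these libraries, against 3 of the 26 GC-poor ones. Of the GC-poor members, 13 of 26 had their highest value in one of these libraries, against 2 of the 26 GC-rich ones. The cause was not tested.

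**Figure D3:**
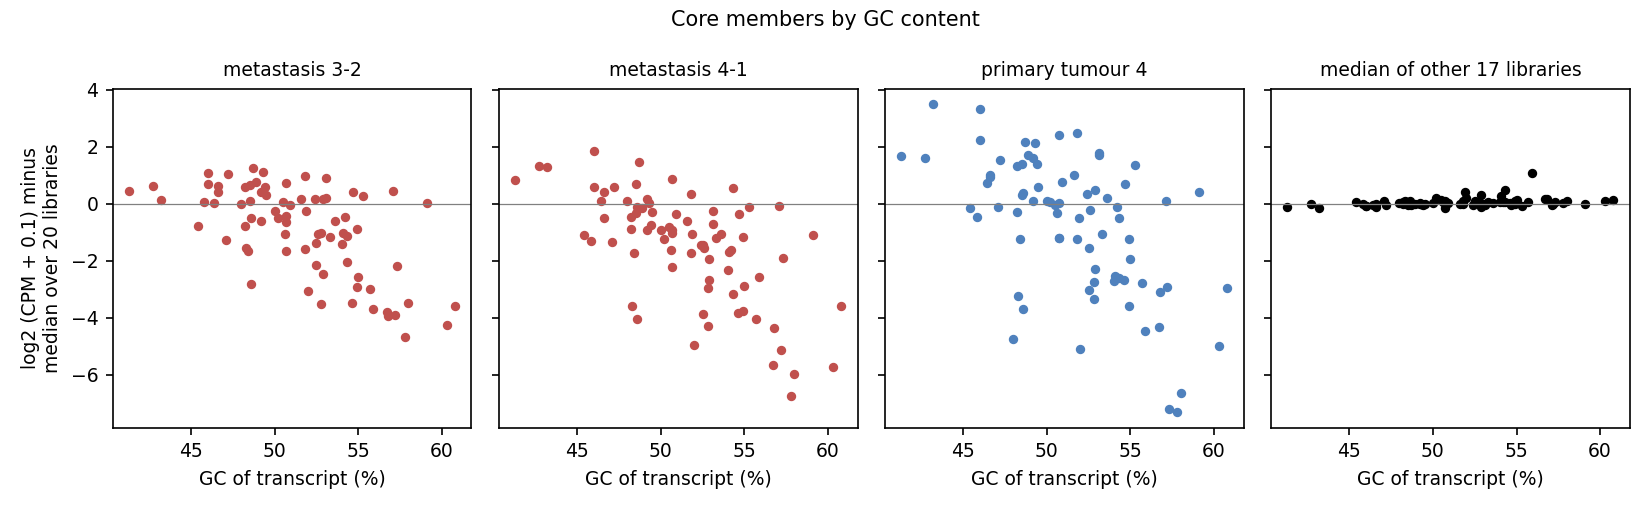
Each core member's log2 (CPM + 0.1) minus its median over 20 libraries (vertical axis) against the GC content of its transcript (horizontal axis, %), in metastases 3-2 and 4-1, in primary tumour 4, and as the median of the other 17 libraries. In the first 3 panels members above about 55% GC lie mostly below 0, and in the last all but one lie near 0.

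These libraries carried much of the spread. The median SD of core members over 20 libraries was 0.675 on the log2 CPM scale, against 0.878 over all genes tested, and 0.732 once each library's mean over core members was subtracted. Without set 4 and metastasis 3-2 it was 0.463, against 0.619 over all genes, and 0.390 with the mean subtracted. Over all 20 libraries the steadiest core members relative to the class mean were Rpsa, Rps3, Rpl4, Rpl28 and Rpl22, with SDs of 0.294 to 0.330. The least steady were Rps15, Rps2, Rpl34, Rpl8 and Rps10.

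Rpl34 and Rps2 were also among the widest in spread, and they were low in many more libraries than those 3. Rpl34, a large subunit protein, had 77.7 to 115 CPM in metastases 1-1 to 1-4, 2-1, 2-2 and 5-x, against 95.8 CPM in primary tumour 1. It had 6.12 to 19.6 CPM in the other 7 metastases, against 4.19 to 18.6 CPM in the other 5 primary tumours. There were no values between these ranges, and the split cut through set 2 and set 5. Rps2, which lies at the mRNA entry of the small subunit, was at 82.4 to 182 CPM in the same 7 metastases, against 91.1 and 106 CPM in primary tumours 1 and 5. It was at 2.90 to 50.4 CPM in the remaining metastases, against 1.66 to 13.5 CPM in the remaining primary tumours. Rpl3 was at 52.6 to 119 CPM in those 7 metastases, and at 16.2 to 33.5 CPM in the others. It had 55.5 CPM in primary tumour 1 and 15.6 to 24.1 CPM in primary tumours 2, 3 and 4. Primary tumours 5 and 6 lay between the 2 ranges of the metastases, at 34.25 and 45.3 CPM of Rpl3. The fitted change of Rps2 was 1.25 ± 0.57 (SE; edgeR, adjusted p = 0.158).

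A like split was seen in Rplp0-ps1, a row named for a processed pseudogene, an intronless copy of an mRNA inserted elsewhere in the genome. Rplp0-ps1 on chromosome 3 had 0.0829 to 0.445 CPM in the 7 metastases above and in metastasis 4-1, against 0.107 to 0.910 CPM in primary tumours 1, 4 and 5. It had 3.92 to 12.1 CPM in metastases 2-3, 2-4, 3-1, 3-2, 6-1 and 6-2, against 10.5 to 22.9 CPM in primary tumours 2, 3 and 6. Another such row, Rpl14-ps1, divided the libraries differently. It had 5.07 to 7.77 CPM in the metastases of sets 2 and 3 and 4.95 CPM in primary tumour 3. Elsewhere it had 17.3 to 36.1 CPM in metastases and 19.2 to 39.3 CPM in primary tumours. Rps13-ps1 had 20.0 to 92.1 CPM over all 20 libraries, more than Rps13, which had a mean of 4.88 CPM in metastases. The 290 rows named for pseudogenes of members held counts equal to 1.10% to 4.92% of the member counts.

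The sharpest exchange was between Rps3a1, a small subunit protein gene on chromosome 3, and Rps3a3, a processed pseudogene on chromosome 13. Rps3a1 had 52.3 to 126 CPM in the 14 metastases, against 63.3 to 143 CPM in primary tumours 1, 2, 3 and 5, but 3.48 CPM in primary tumour 4 and 5.89 CPM in primary tumour 6. Rps3a3 had 172 CPM in primary tumour 4 and 457 CPM in primary tumour 6. It had 12.3 and 17.8 CPM in metastases 3-2 and 4-1 and 0.290 to 1.39 CPM in the other 16 libraries. The coding sequence of Rps3a1 and the Rps3a3 transcript are identical at 783 of 792 bases (98.9%). The coding bases 201 to 260 of Rps3a1, the first of the 60-base stretches with the most differences, are shown with the 2 differing bases in capitals (5′ to 3′, GENCODE M21).
Rps3a1 (chromosome 3): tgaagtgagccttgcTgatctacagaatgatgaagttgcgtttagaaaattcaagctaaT
Rps3a3 (chromosome 13): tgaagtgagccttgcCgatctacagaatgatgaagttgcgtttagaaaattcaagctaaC

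A read that lies within the aligned coding sequence and holds none of the 9 differing bases fits both genes. How reads that fit several places were counted is not given in the sources used here. The log2 fold change of Rps3a1 in metastases, 0.77 ± 0.52 (SE; edgeR, adjusted p = 0.357), was fitted with primary tumours 4 and 6 as the low values of their group.

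**Figure D4:**
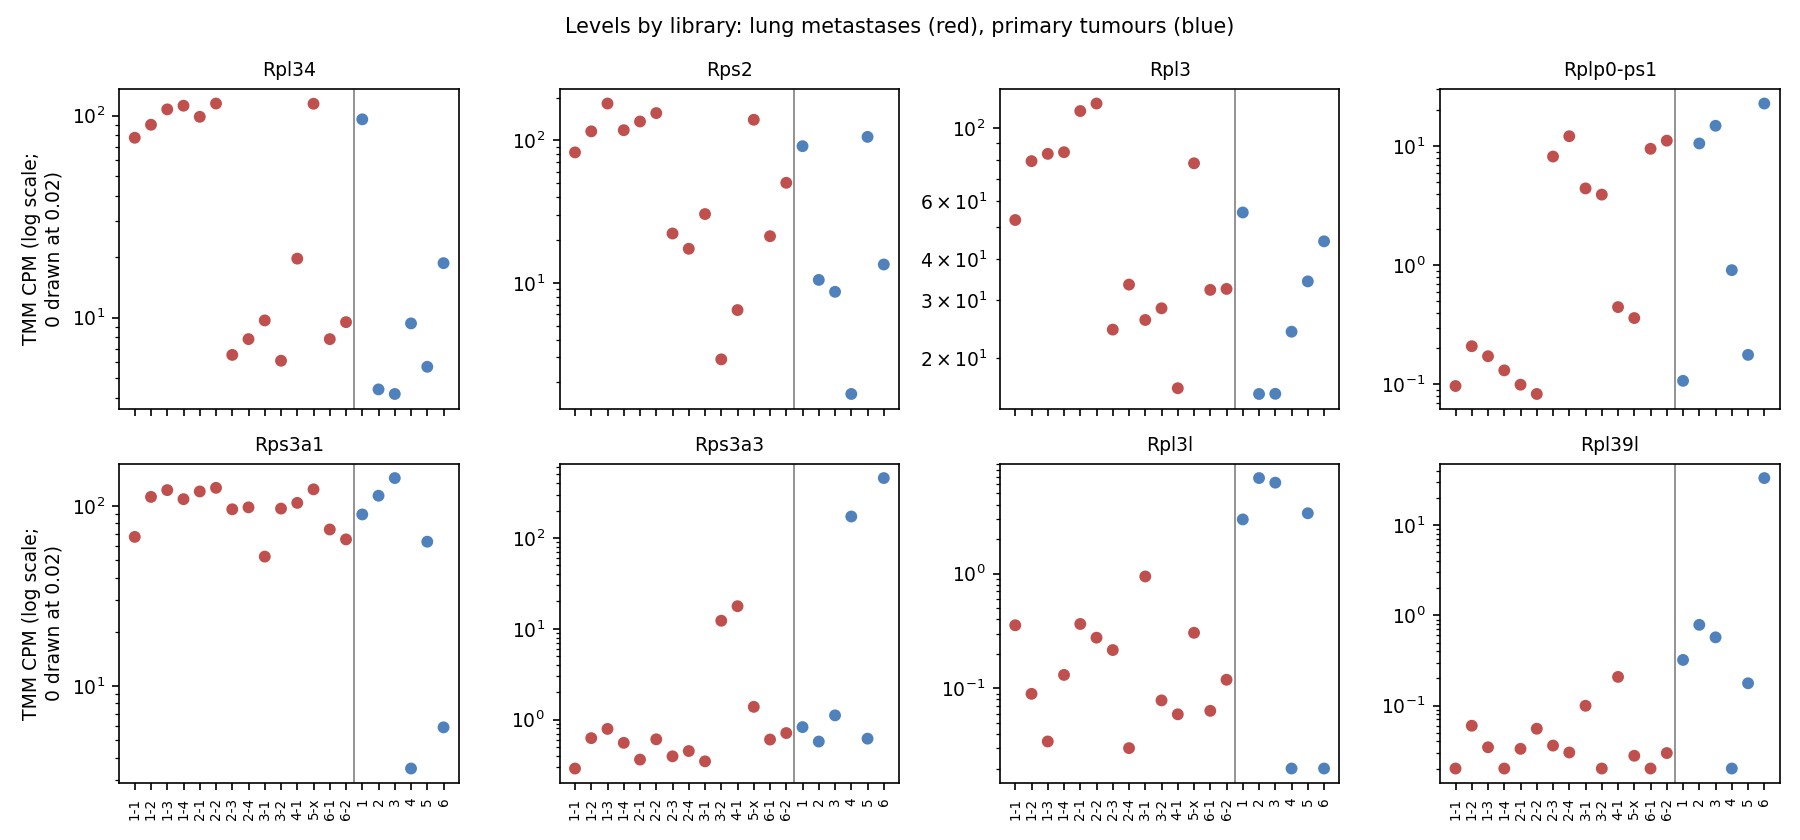
TMM-scaled CPM (vertical axes, log scale, 0 drawn at 0.02) of 6 members and of the pseudogene rows Rplp0-ps1 and Rps3a3 in each library, with lung metastases left and primary tumours right. Rpl34 is at 77.7 CPM or more in 8 libraries and at 19.6 CPM or less in 12, and Rps3a1 and Rps3a3 change places in primary tumours 4 and 6.

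The level at which a member was counted differed widely, although the ribosome holds these proteins in near equal numbers. Per kilobase of transcript, high means over the 20 libraries were those of Rpl8 (1205 CPM per kilobase), Rps14 (719.8), Rpl32 (705), Rpl4 (619) and Rps15 (427 CPM per kilobase). The lowest were those of Rpl24 (1.36), Rpl38 (1.40), Rps16 (1.46), Rps29 (1.53), Rpl23a (2.7), Rpl28 (2.71) and Rps6 (2.73 CPM per kilobase). The order went with how much of the coding sequence a member shares with other annotated genes. Words of 50 bases from the coding sequence were looked up in the transcripts of all other genes on both strands. In 29 core members every word was found elsewhere, and their median level was 8.32 CPM per kilobase. In 10 members at most 50% of words were shared, and the median was 424 CPM per kilobase. Between them lay 23 members with over 50% to 90% shared (median 128 CPM per kilobase) and 15 with more (median 28.7 CPM per kilobase). A single transcript of each member gave its length, and levels per kilobase depend on that choice. Some of these transcripts are much longer than their coding sequence. The 2 lengths are 5179 and 390 bases in Rps15a, 3706 and 357 in Rps20, and 2989 and 564 in Rpl18.

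Rps3 shared 8.1% of its words, whereas Rps6 shared all of its words with 14 other genes and Rpl21 all of its words with 82. Whether shared sequence changed how many reads were counted was not tested, and levels of members with different shares are given as a description. Rpl13, with all words shared, still had the 212 CPM per kilobase that was the highest of its class.

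**Figure D5:**
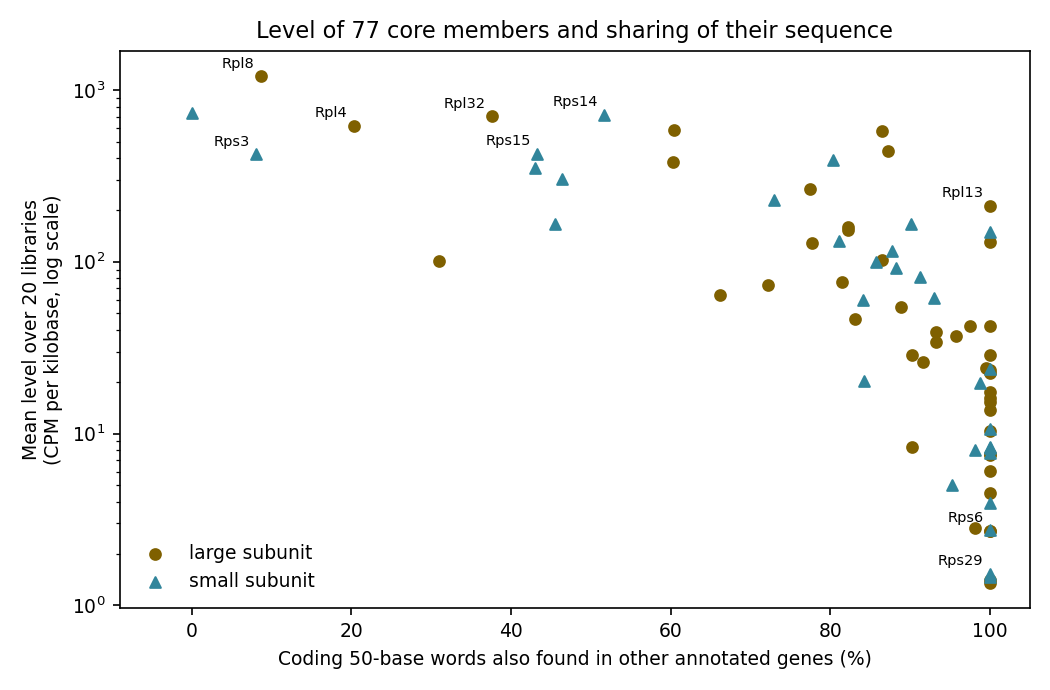
Mean level of 77 core members over 20 libraries (vertical axis, CPM per kilobase, log scale) against the share of their coding 50-base words found in other annotated genes (horizontal axis, %), with circles for the large and triangles for the small subunit. Members that share at most 50% of words lie at 100.6 CPM per kilobase or above, and members that share all of them run from 1.36 to 212 CPM per kilobase.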

How the data were processed

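Stranded, Ribo-Zero Gold depleted libraries were prepared from Direct-zol RNA of 20 mouse tumour tissues, per the labels' protocols. Trimmomatic 0.36, STAR and HTSeq were used with mm10, per the submitters' processing notes. The authors deposited unnormalized counts of reads for each gene. Not given in the sources used here are the annotation release, the strand setting and the treatment of reads that fit several places. Counts of members with near-identical copies, overlapping or antisense genes are therefore uncertain. Of 51826 identifiers, 51633 had a symbol in GENCODE M21 (GRCm38), which also gave transcripts, lengths and GC content. No columns were left unmapped (0).

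edgeR 4.0.16 in R 4.3.3 was run on the counts: filterByExpr (minimum count 10), TMM, and a robust quasi-likelihood test with matched set as a block. P-values were Benjamini-Hochberg adjusted over all genes, with a threshold of 0.05. The SE is the log2 fold change divided by the root of the F statistic. Log2 CPM used a prior count of 2. The pairing comes from the titles. As a check, deviations of metastases and of their own primary tumour from the group means correlated at 0.0974 on average (-0.234 to 0.345, over 0.1 in 8 of 14) over the 1000 most variable genes. DESeq2 1.42.0 and other scalings, filters, covariates and left-out libraries were alternatives.

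The members and lists were chosen with earlier results of these data known. Members were named by a rule: paralogs and parents, a fixed list, called members, the most and least variable core members, the highest and lowest per kilobase in each subunit, and those of smallest p between sets. Rpl21, Rpl31, Rpl39l, Rpl41, Rps3a1, Rps13, Rps26, Rpl13, Rpl37 and the pseudogene rows were named after their values were seen. Some genes that the rule or the lists name are not reported here.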

Additional observations from a re-analysis of the deposited data

Results flagged for a closer look

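Among the 6 primary tumours, 44 results were examined for a sample far from the others, and 13 were found, where chance gives about 1 in 20 for a single result. The results are not independent of each other, since members moved together in primary tumour 4, and some were named for being the most variable, so the count is not read against that share. Primary tumour 4 was the sample in 12 of them. It was high in Rps27l (232 CPM) and Rps29 (1.93 CPM), and low in Rplp0 (92.0 CPM), Rplp1 (1.98 CPM), Rplp2 (14.98 CPM), Rps14 (14.0 CPM), Rps19 (15.4 CPM), Rps15 (1.39 CPM), Rpl8 (11.4 CPM), Rps10 (1.61 CPM), Rps18 (10.6 CPM) and Rps21 (22.7 CPM). Primary tumour 6 stood apart in Rpl22, at 452 CPM. The row of the pseudogene Rps3a3, outside the members, had 172 CPM in primary tumour 4 and 457 CPM in primary tumour 6, above the level of every other library. The causes were not tested.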

How the results depend on the processing

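The median log2 fold change of members (-0.47 to 0.15 over 31 alternatives) and the difference between the subunits' medians (0.04 to 0.24, against 0.08 in all libraries) moved by less than the spread between sets (SD 0.583 and 0.245, n = 6 sets). The subunit difference was largest without sets 4 and 6 and metastasis 3-2. The median turned positive, to 0.15, without sets 4 and 6 and metastasis 3-2. Upper quartile scaling and scaling to the core member total moved the median of all genes by 0.07, and testing without a filter on low counts moved it to 0.26. The number of members that fell was 3, where 6.44% of all genes fell. It was 5 with DESeq2 (10.1% of all genes), without the replicate block (6.84%) and with the GC trend removed (10.1%). It was 0 with the metastases of each set summed (0.357%), 21 with the skeletal muscle covariate (11.6%) and 1 with the lung epithelium covariate (3.3%). Leaving out 1 set or metastasis gave 0 to 6 falls and 0 to 2 rises, where 2.22% to 9.25% of all genes fell and 3.09% to 10.4% rose. The number that rose was 0, where 7.34% of all genes rose. It was 1 with DESeq2 (Rpl5, 12.5% of all genes), with the muscle covariate (Rps3a1, 15.4%) and with the GC trend removed (8.54%). It was 4 without set 4 and metastasis 3-2 (9.28%), 1 in that fit with the GC trend removed (7.99%), and 3 without sets 4 and 6 and metastasis 3-2 (6.34%). The number that differed between sets (0) was 23 with DESeq2 (25.1% of all genes), 25 scaled to the core member total (30.5% of members, against 36.3% of all genes) and 3 with no filter (0.407%), and 0 to 37 with 1 set or metastasis left out. With the replicate block removed, Rpl3l, Rpl13a and Rpl15 were still called, with Rpl22l1 and Rpl31. Among single members, 0 reversed past the threshold, 29 values lost and 25 gained a call. The causes were not tested. Members at low levels, such as Rpl24, Rpl38, Rps29 and Rps6, rest on few counts. The means of these members were 0.512 to 2.66 CPM in metastases, against 0.614 to 1.78 CPM in primary tumours.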

Other observations

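Rpl7, a large subunit protein, had 1709 CPM in metastasis 2-3, against 90.2 to 365 CPM in the other 13 metastases and 162 to 408 CPM in the primary tumours. Rpl7l1 stayed at 102 CPM in metastasis 2-3, so that it made up 5.62% of the pair there and 14.8% to 42.3% in the other libraries. Rpl29, a large subunit protein, had 0.314 and 0.208 CPM in metastases 3-2 and 4-1 and 3.98 to 13.6 CPM in the other metastases. In primary tumours 4, 5 and 6 it had 0.642, 0.501 and 0.774 CPM, against 6.15 to 6.99 CPM in primary tumours 1 to 3. Rps4l, a pseudogene copy of Rps4x, had 22.6 and 16.3 CPM in primary tumours 2 and 3 and 0 to 2.64 CPM in the other libraries. These genes were chosen after their values were seen, and the causes were not tested.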
